A study of Rattus norvegicus with 90 samples.

Results

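Transcripts whose level differed between low-dose and vehicle cultures of rat renal cells at 9 h, and no longer differed at 24 h, numbered 200 among the 40071 Ensembl transcripts of the tables. They were chosen by a rule on measured levels. The level was taken as CPM, the estimated count of a transcript scaled so that the Ensembl transcripts of every library share one total, and L as log2((mean CPM at the dose + 1)/(mean CPM in vehicle + 1)) at the same time. A member had an L above 0.6 in size at the low dose at 9 h and an L between -0.3 and 0.3 at both doses at 24 h. Of 1090 transcripts over the first limit, 273 met every bound, and the 200 with the largest L were kept. The list holds 52 transcripts with a higher level at the low dose at 9 h, called rises here. The other 74% had a lower level and are called falls.

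The cells were primary cells of Sprague-Dawley rats, and every treated group received thioacetamide-S-oxide. The renal groups were vehicle, 0.125 mM (low) and 0.5 mM (high), each for 9 and for 24 h and each with 5 libraries. The labels call the cells renal tube epithelial cells. According to the study's methods they were cryopreserved proximal tubular cells from a supplier, kept in their own culture medium, which also served as the vehicle. Hepatocytes (vehicle, 0.025 and 0.125 mM) and cardiomyocytes (vehicle, 0.5 and 1.5 mM), with the same times and 5 libraries a group, gave the comparisons that the rule did not use. The study's paper describes the hepatocytes and renal cells but does not mention the cardiomyocytes or their source. In all there were 18 groups and 90 libraries. Nothing in the labels says that the libraries of a group came from separate animals, so p-values measure only the spread between these libraries, which may be technical.

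Thioacetamide is a liver toxicant that injures cells only after oxidation. Its S-oxide is the first product, and a further oxidation gives a reactive species that binds to cell proteins and lipids. The proximal tubule reabsorbs most of what the kidney filters and takes up and metabolises many foreign compounds, and cells taken from it into culture are known to lose much of their specialised expression within days. No table at hand paired the Ensembl transcript identifiers with gene names, so the members are given by identifier, their functions are not described, and the cell type could not be checked against its markers.

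The renal libraries held 10729341 to 36106568 estimated counts on transcripts (median 25700778). Library MS-145 of the low dose at 24 h was left out by the rule. Its RNA fragments were the shortest of the renal libraries, with a mean length of 142.8 bases against 150.7 to 172.7 bases in the others, and 19689 transcripts were detected in it against 20861 to 24281. Among low-dose libraries at 9 h, MS-130 came closest to it in both measures, with 150.7 bases and 20861 transcripts. Hepatocyte vehicle library MS-183 (24 h) had 249303 counts on transcripts and was left out of the comparison that would have used it.

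A block of 30 falls stood apart from the rest of the list. In vehicle cultures at 9 h their mean level was at least 100 times higher in hepatocytes than in renal cells, from 202 times upwards, while the next fall in this order was 34.2 times higher. This limit was set after the values were seen. These hepatocyte-rich falls were found almost only in the renal vehicle libraries of 9 h. Their summed level there was 77.1 CPM in MS-121, 111.8 in MS-122, 48.7 in MS-123, 260.5 in MS-124 and 43.9 in MS-125, against 1.20 to 3.84 CPM in all other renal libraries. In hepatocyte vehicle cultures at 9 h the same sum was 66430 to 73010 CPM, and in cardiomyocytes the group medians were 61.7 to 101.5 CPM. The order of the 5 renal libraries was nearly the same from transcript to transcript, with MS-124 highest. As a share of its own hepatocyte level, the median member of the block stood at 0.104%, 0.155%, 0.0686%, 0.360% and 0.0632% in MS-121 to MS-125. Among 25 transcripts that reached 1000 CPM in hepatocyte vehicle cultures at 9 h and 100 times their renal vehicle level at 24 h, 16 were higher in all 5 renal vehicle libraries of 9 h than in any other renal library used, and 12 of the 25 are members. As a set, the 25 were not confined to those libraries. Their summed level was 106.1 to 394.1 CPM in vehicle at 9 h and 189.5 to 272.6 CPM at the high dose at 24 h, beside 47.5 to 102.3 CPM in the other renal libraries. The origin of these reads was not tested, and most counts below are also given without the block.

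**Figure D1:**
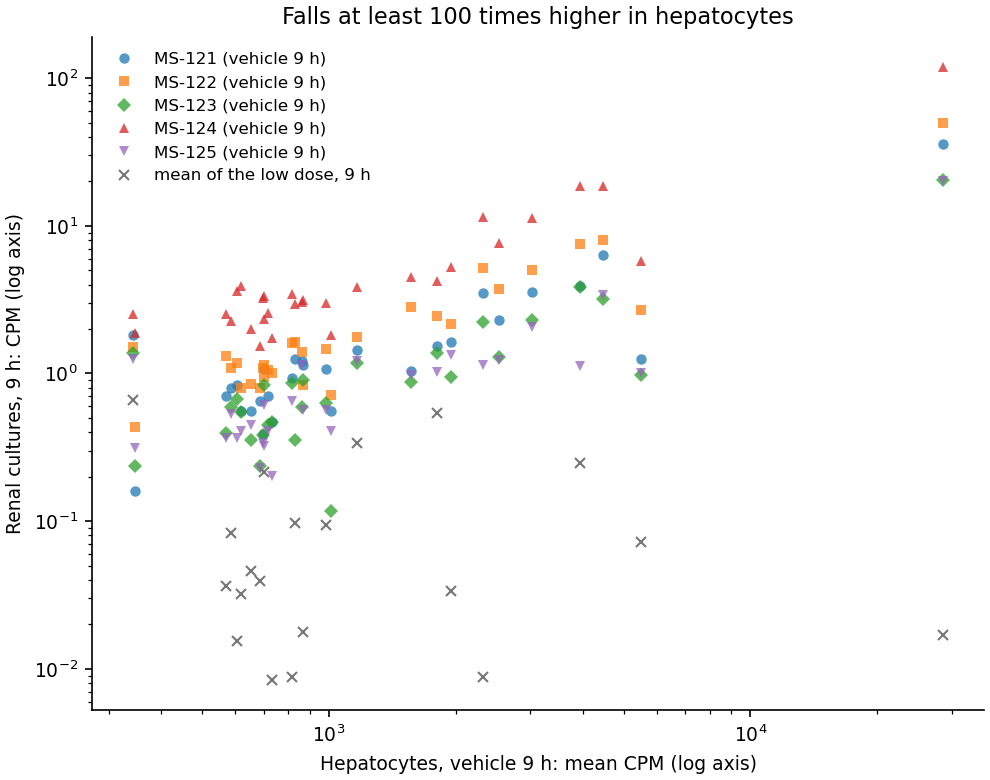
Level of the 30 hepatocyte-rich falls in each renal vehicle library at 9 h (CPM, log axis) against their mean level in hepatocyte vehicle cultures at 9 h (CPM, log axis). Grey crosses give the mean of the 5 low-dose renal libraries at 9 h, and values at or close to 0 are not drawn. In each vehicle library the levels follow the hepatocyte levels, MS-124 lies highest with a median of 0.360% of the hepatocyte level, and the low-dose means lie far below.

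All 6 of the falls with the largest L belong to this block. The first, ENSRNOT00000003921, stood at 35.7, 49.5, 20.5, 118.4 and 20.2 CPM in MS-121 to MS-125, and between 0 and 0.0498 CPM in the 5 low-dose libraries of 9 h. At 9 h its L was -5.62 for the low and -5.39 for the high dose. The vehicle libraries themselves differed severalfold, while their mean fell by 5.63 on the log2(CPM + 1) scale by 24 h. In hepatocyte vehicle cultures at 9 h this transcript stood at 28660 CPM on average. The other 5 are ENSRNOT00000010454, ENSRNOT00000004780, ENSRNOT00000004174, ENSRNOT00000022113 and ENSRNOT00000058422. Their values repeated the order of the vehicle libraries, for example 6.39, 8.01, 3.18, 18.6 and 3.42 CPM for ENSRNOT00000010454 against 0 in every low-dose library of 9 h.

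The block holds 20.3% of the falls. The rest, called the other falls here, were mostly measured at levels where the 5 libraries of a group lay close together. The median L of these falls was -0.88 at the low dose at 9 h, with the middle 50% of the values between -1.04 and -0.75. An exception was the one with the largest L, ENSRNOT00000001110 (-1.89). It had 2.78 ± 3.86 CPM (SD, n = 5) in vehicle at 9 h, and its vehicle and low-dose libraries overlapped. ENSRNOT00000017468 had the highest level per length of all members in vehicle cultures at 9 h (1484 TPM, the length-normalised counterpart of CPM). Its vehicle libraries of 9 h stood at 1628, 1642, 1609, 1585 and 1592 CPM, and its low-dose libraries at 471, 533, 511, 569 and 580 CPM. The groups were far apart, with an L of -1.59. At 24 h the vehicle libraries had 480, 388, 483, 491 and 379 CPM, and the 4 low-dose libraries 497, 526, 491 and 352 CPM. The low-dose level had hardly moved from 9 to 24 h, and the vehicle level had come down to it.

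ENSRNOT00000020647, the fall with the next highest TPM (737), had the same course. Its level was 714 ± 12.2 CPM (SD, n = 5) in vehicle and 263 ± 15.3 CPM (n = 5) at the low dose at 9 h. At 24 h it was 251 ± 15.5 CPM (n = 5) in vehicle and 256 ± 30.1 CPM (n = 4) at the low dose. A further fall, ENSRNOT00000001625, was picked after its values were seen for the narrow spread of its libraries. Vehicle at 9 h gave 324, 331, 324, 325 and 325 CPM, the low dose at 9 h 102.3, 106.6, 107.5, 107.2 and 105.6 CPM, and vehicle at 24 h 110, 97.5, 112.6, 115.1 and 102.4 CPM. Here again the vehicle libraries of 9 h lay above all other renal libraries, which did not separate by dose at 24 h.

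The rises were smaller and, in many cases, lower in level. Their median L was 0.82 at the low dose of 9 h, and 24 of the 52 had a vehicle mean under 1 CPM at 9 h. ENSRNOT00000025045 was the best measured of the 6 largest rises. Its vehicle libraries of 9 h had 27.2, 25.02, 26.2, 28.1 and 24.4 CPM and its low-dose libraries 59.9, 66.7, 64.8, 69.5 and 71.7 CPM, with an L of 1.31 and no overlap. By 24 h the vehicle libraries had reached 50.4, 46.5, 54.5, 54.5 and 47.2 CPM, near the 4 low-dose libraries at 55.04, 62.6, 54.3 and 48.1 CPM. ENSRNOT00000066932 went further the same way. It stood at 0.868 to 1.98 CPM in vehicle and 6.85 to 10.01 CPM at the low dose at 9 h, and at 11.3 to 19.4 CPM in vehicle at 24 h, above every low-dose library of 9 h.

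Among the other large rises, ENSRNOT00000090064 moved from 0 to 1.10 CPM in vehicle to 3.01 to 4.48 CPM at the low dose at 9 h, and its vehicle libraries of 24 h had 1.77 to 3.82 CPM. It is 11356 bases long, so these levels rest on a low density of reads. The largest rise by the rule, ENSRNOT00000072868 (L of 2.72), rested on 1 library. It had 28.5 CPM in MS-130, the low-dose library with the shortest fragments, against 0.537 to 2.88 CPM in the other 4, and 75.5 CPM in the library left out, MS-145. At 24 h it ranged from near 0 to 27.7 CPM within groups. ENSRNOT00000089935 (0, 0, 2.46, 7.05 and 12.2 CPM at the low dose at 9 h, in order of level) and ENSRNOT00000080478 (0 to 6.2 CPM) were patchy in the same way, and both were also high in MS-145, at 28.4 and 12.5 CPM. A single library held over 50% of the summed low-dose CPM of 9 h for 16 of the 52 rises and for 7 of the other falls. For a fall, where vehicle is the higher group, this measure cannot show whether a single vehicle library carried the difference. The part that fragment length had in these values was not tested.

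By length-normalised level, the leading rises were ENSRNOT00000019690 (24.3 TPM in vehicle at 9 h) and ENSRNOT00000081571 (18.8 TPM). The first had 10.2 to 16.0 CPM in vehicle and 20.6 to 24.6 CPM at the low dose at 9 h, the second 3.50 to 4.16 and 6.38 to 7.76 CPM. Neither pair of groups overlapped, and the vehicle means of 24 h, 19.0 and 6.74 CPM, were again close to the low-dose means of 9 h, 22.2 and 7.05 CPM.

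**Figure D2:**
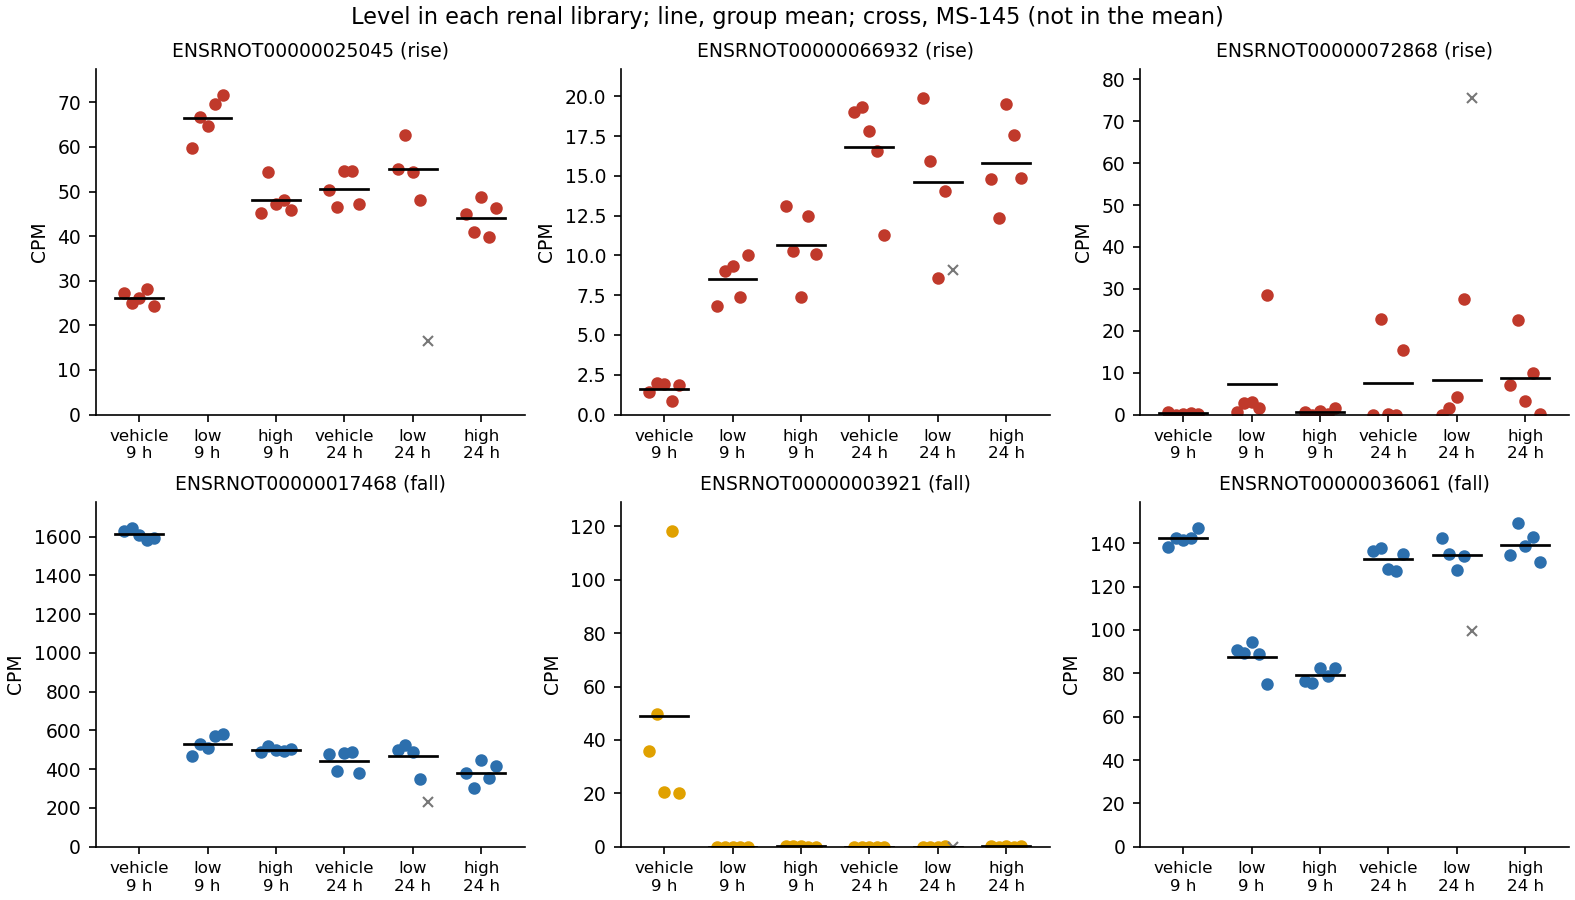
CPM of 6 members in each renal library by group, with the axis starting at 0. Points are libraries, lines are group means and the grey cross is MS-145, which is not in the mean. ENSRNOT00000017468 and ENSRNOT00000003921 are high only in vehicle at 9 h, ENSRNOT00000025045 and ENSRNOT00000066932 are low only there, ENSRNOT00000072868 depends on single libraries, and ENSRNOT00000036061 is lower in both treated groups at 9 h than in any group mean of 24 h.

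The question behind the list is which arm closed the difference between 9 and 24 h. The rule holds L near 0 at 24 h, so the difference of 9 h has to be met by a change of the vehicle level, of the low-dose level, or of both. The change of an arm was taken as log2((mean CPM at 24 h + 1)/(mean CPM at 9 h + 1)). In 84% of the 200 members the vehicle level moved more than the low-dose level: in 36 of the 52 rises and in 89.2% of the falls. Without the hepatocyte-rich block it was 81.2% of 170. The median change of the other falls was -0.79 in vehicle and 0.15 at the low dose, and that of the rises was 0.64 in vehicle and -0.16 at the low dose. All these values entered the rule, so they are a description of the list and nothing further is read from them.

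Expressed as a share of L, the vehicle change made up at least 0.75 of the difference in 140 members (29 rises, 30 hepatocyte-rich falls and 81 other falls) and less than 0.25 in 17 (11 rises and 6 falls). Among the 817 transcripts that passed the limit at the low dose at 9 h but missed a bound at 24 h, the corresponding shares were 50.2% and 15.8%, against 70% and 8.5% of the members, or 64.7% and 10% without the hepatocyte-rich block. The bounds at 24 h take part in this difference by construction.

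**Figure D3:**
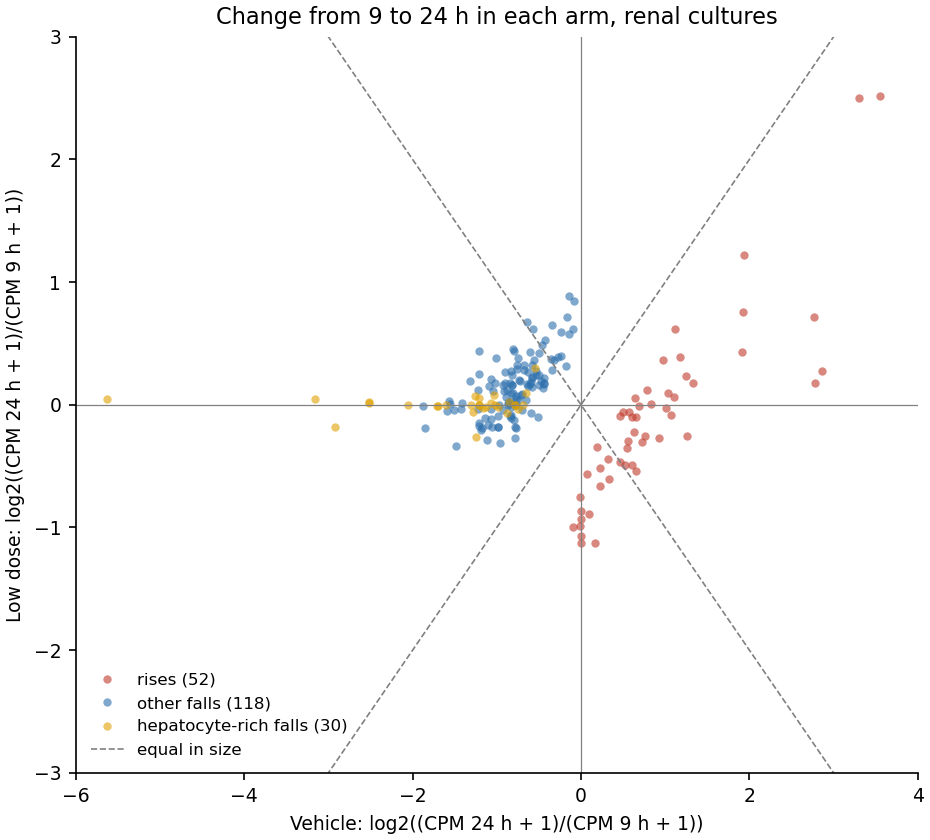
Change from 9 to 24 h in vehicle cultures (horizontal axis) and in low-dose cultures (vertical axis), both as log2((CPM 24 h + 1)/(CPM 9 h + 1)), for the 52 rises, the other falls and the 30 hepatocyte-rich falls. Between the dashed lines on the left and right, the vehicle level moved more than the low-dose level, as it did for 84% of the 200 members.

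The vehicle libraries of 9 h were also set against all other renal libraries together. For 61.5% of the 200 members (19 rises, 25 hepatocyte-rich falls and 79 other falls) all 5 of these libraries lay above or all 5 below the other 24. Over the 16163 transcripts of at least 1 CPM in vehicle or low-dose cultures at 9 h, 6.71% did so. These vehicle, low-dose and 24 h libraries chose the members, and the high dose at 9 h is set against the same vehicle libraries, so nothing is read from this share. Low-dose and vehicle libraries of 9 h did not overlap for 73.5% of the members (23 rises, 28 hepatocyte-rich falls and 96 other falls), where the share over all 16163 transcripts was 24.9%. That contrast chose the members, and nothing is read from it.

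The low-dose level made up most of the change in the 17 members whose vehicle change was under 0.25 of L, and in 43 others (21.5% of the list) the vehicle share lay between 0.25 and 0.75. Of the 17, ENSRNOT00000036061 was the highest in level, and it is named for that after its values were seen. Vehicle libraries of 9 h stood at 142.3 ± 3.15 CPM (SD, n = 5), from 138.2 CPM upwards, low-dose libraries at 90.6, 89.6, 94.3, 89.1 and 74.99 CPM, and high-dose libraries at 76.6, 75.6, 82.6, 78.8 and 82.5 CPM. At 24 h it stood at 132.8 ± 4.93 CPM in vehicle (n = 5), 134.8 ± 5.98 CPM at the low dose (n = 4) and 139.3 ± 7.08 CPM at the high dose (n = 5). Both treated groups were below every vehicle library at 9 h and overlapped with vehicle at 24 h. ENSRNOT00000076674 showed a return of the low dose alone. It had 11.6 to 13.1 CPM in vehicle, 6.48 to 8.49 CPM at the low dose and 11.9 to 12.6 CPM at the high dose at 9 h, and 9.02 to 12.9 CPM in vehicle at 24 h. Most of the rest were low or patchy. The 11 rises of this kind had low-dose means of 0.681 to 1.82 CPM at 9 h, and ENSRNOT00000022583 ranged from near 0 to 8.58 CPM within the low-dose group of 9 h.

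The high dose at 9 h was not part of the rule, but it was set against the same 5 vehicle libraries. L at the high dose was above 0.6 in size with the same sign for 24 of the 52 rises, 29 of the 30 hepatocyte-rich falls and 74.6% of the other falls. Its median was 0.53 for the rises and -0.83 for the other falls. Calls were made with the quasi-likelihood test of edgeR, where the Benjamini-Hochberg adjusted p had to be 0.05 or less and the fold change 0.41 or more in size as a natural logarithm. At the high dose 22 of the 37 rises that passed the filter were called higher, and 80.2% of the falls lower (76.6% outside the hepatocyte-rich block). Over all transcripts tested 8.16% were called higher and 10.9% lower. The shared vehicle libraries tie these counts to those of the rule. In the contrast of the rule itself, low dose against vehicle at 9 h, 25 of 39 rises tested were called higher and 93.7% of the falls lower (92.7% outside the block), beside 2.28% and 4.41% of all transcripts, and nothing is read from it. The filter left out 34 members there and 32 at the high dose.

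The size of L was larger at the high dose than at the low dose in 8 of the 52 rises and 55 of the falls, 48 of them outside the block. The members were chosen for the size of L at the low dose, which favours a smaller L at the high dose, so no dose trend is read from these counts. ENSRNOT00000010779 was the rise with the largest L at the high dose (2.49). It had 0.691 to 1.23 CPM in vehicle, 3.57 to 4.18 CPM at the low dose and 9.44 to 10.7 CPM at the high dose at 9 h, so that the 3 groups were apart and in order of dose, while at 24 h the group means lay between 4.04 and 4.42 CPM without MS-145. A sign opposite to that of the low dose was seen in 10 rises and 2 falls. The largest of these were ENSRNOT00000029340 (L of 0.98 at the low and -0.59 at the high dose) and ENSRNOT00000086496 (-0.78 and 0.28), both of which had libraries at or near 0 in more than 1 group.

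**Figure D4:**
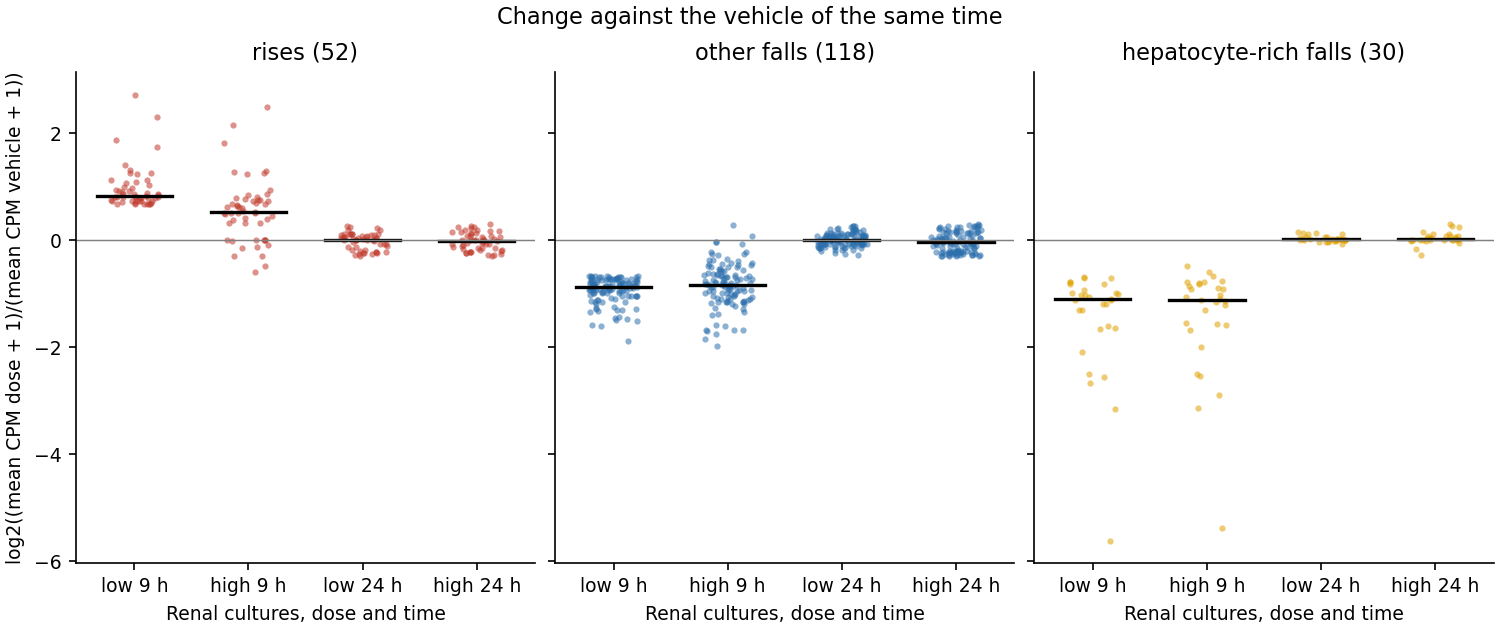
L, log2((mean CPM dose + 1)/(mean CPM vehicle + 1)), of each member in renal cultures at the low and high dose at 9 and 24 h, for 52 rises, the other falls and 30 hepatocyte-rich falls. Black lines are medians (0.82 and 0.53 for the rises and -0.88 and -0.83 for the other falls at the low and high dose at 9 h), and the low dose at 9 h and both doses at 24 h are values the rule used.

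The members were then followed in hepatocytes and cardiomyocytes, which the rule did not use, at the low dose at 9 h and the high dose at 9 and 24 h. The low dose at 24 h was not compared here in either cell type. Of the 200, 88.5% passed the filter in at least 1 of these 6 comparisons, 48% in all 6, and 23 members in none. A call was made in at least 1 comparison for 51.5% of the members, 14 of them rises, 28 hepatocyte-rich falls and 61 other falls. That is 58.2% of the members tested in at least 1 comparison, and 51.02% without the hepatocyte-rich block, beside 42.7% of all transcripts tested in at least 1. Of the members called, 17 were called higher in one comparison and lower in another (9.61% of those tested, and 9.52% without the block), beside 7.03% of all transcripts. These shares were not tested against each other. In the comparisons that follow, the largest increase and decrease are those among called members whose log2 CPM averaged 1 or more, with no overlap between the groups, so a scarcer transcript, or one that was not called, may have a larger fold change.

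In hepatocytes at the low dose (0.025 mM, 9 h), 2 members were called (1.45% of those tested), both of them falls and both higher, beside 1.12% of all transcripts called higher and 1.22% lower. The count fell to 0 or 1 without any 1 of MS-91, MS-92, MS-93, MS-96, MS-98, MS-99 or MS-100. One was ENSRNOT00000087028. It had 2.25 to 3.05 CPM in vehicle and 3.13 to 6.79 CPM at the low dose, a log2 fold change of 0.73 ± 0.22 (SE) with an adjusted p of 0.0395 in the quasi-likelihood test of edgeR with Benjamini-Hochberg adjustment. In renal cells it was a fall, at 2.07 to 2.79 CPM in vehicle and 0.299 to 1.26 CPM at the low dose.

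The high dose of the hepatocytes, 0.125 mM, was the low dose of the renal cells. At 9 h 19 falls were called higher (17.1% of those tested) and 5 lower (4.51%), and 2 of 25 rises were called higher and 1 lower. The background was 8.48% higher and 9.95% lower. Of the falls that were called, all 19 higher and 4 lower lay outside the hepatocyte-rich block, where they made up 23.5% and 4.94% of those tested. The block gave 1 call lower among its 30 members. These shares are a description, and their difference from the background was not tested. Within the limits on level and overlap, ENSRNOT00000091731 had the largest increase. Its hepatocyte vehicle libraries stood at 110, 136.5, 111.4, 158.4 and 168.1 CPM and its treated libraries at 377, 416, 401, 478 and 364 CPM, a log2 fold change of 1.67 ± 0.12 (SE; adjusted p = 6.89e-07, edgeR quasi-likelihood test with Benjamini-Hochberg adjustment). In renal cells at the same concentration and time it went from 101.8 to 108.6 CPM in vehicle to 52.5 to 64.5 CPM. The largest decrease was that of ENSRNOT00000083682, from 580 to 641 CPM in vehicle to 244 to 304 CPM (log2 fold change -1.0 ± 0.07, adjusted p = 4.66e-07, edgeR quasi-likelihood test with Benjamini-Hochberg adjustment).

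At 24 h in hepatocytes at the high dose, without MS-183, 35 falls were called higher (30.97% of those tested) and 9 lower (7.96%), and 6 of 28 rises higher and 3 lower, beside 15.1% and 11.6% of all transcripts. The hepatocyte-rich block supplied 23 of the 35 calls higher, from 30 members. Outside it 12 falls were called higher (14.5%) and 8 lower (9.64%), close to the background. In all, 53 members were called with the block and 29 without it. ENSRNOT00000014073, which had the largest increase and belongs to the block, stood at 146.7 to 172.8 CPM in the 4 vehicle libraries and at 1073 to 1241 CPM in the treated libraries (log2 fold change 2.82 ± 0.06, adjusted p = 1.47e-09, edgeR quasi-likelihood test with Benjamini-Hochberg adjustment). Its vehicle libraries of 9 h had 1895 to 1991 CPM, so the treated cultures were nearer to the level of 9 h than the vehicle cultures were. ENSRNOT00000086014 had the largest decrease, from 17.5 to 36.2 CPM in vehicle to 7.49 to 10.8 CPM (log2 fold change -1.71 ± 0.21, adjusted p = 0.000102, edgeR quasi-likelihood test with Benjamini-Hochberg adjustment), and was a fall in renal cells as well.

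Cardiomyocytes at their low dose, 0.5 mM, received the high dose of the renal cells. At 9 h 14 members were called (10.3% of those tested): 2 of 27 rises higher, and 3 falls higher and 9 lower (2.75% and 8.26% of the falls tested, and 2.97% and 7.92% outside the block), where 1.28% and 1.14% of all transcripts were called higher and lower. Among the called members within those limits ENSRNOT00000073564 had the largest increase, from 3.31 to 4.67 CPM in vehicle to 6.11 to 11.2 CPM (log2 fold change 1.09 ± 0.14, adjusted p = 0.00256, edgeR quasi-likelihood test with Benjamini-Hochberg adjustment). It was a rise in renal cells, at 6.62 to 8.19 CPM in vehicle and 12.4 to 15.3 CPM at the low dose at 9 h. ENSRNOT00000045628, of the hepatocyte-rich block, had the largest decrease of that kind, from 57.3 to 61.1 CPM to 19.9 to 36.4 CPM (log2 fold change -0.91 ± 0.08, adjusted p = 0.000322 in the same edgeR test with Benjamini-Hochberg adjustment). The treated library MS-158 stood apart, with fragments of 139.2 bases against 157.7 bases or more and 19579 transcripts detected against 23661 to 24742 in the other 4, and 19 members were called without it. The count of 14 was 9 without any 1 of MS-152, MS-154, MS-155, MS-159 or MS-160.

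At the high dose of the cardiomyocytes (1.5 mM), 26 members were called at 9 h (18.3% of those tested): 2 of 30 rises higher, and 11 falls higher and 13 lower (9.82% and 11.6% of the falls tested, and 8.82% and 10.8% outside the block), beside 6.22% and 6.41% of all transcripts. ENSRNOT00000020505, a fall in renal cells, had the largest increase within the limits, from 48.7 to 61.6 CPM in vehicle to 112.2 to 179.2 CPM (log2 fold change 1.29 ± 0.13, adjusted p = 8.07e-06, edgeR quasi-likelihood test with Benjamini-Hochberg adjustment). For ENSRNOT00000086496 the treated libraries were at or near 0, against 2.18 to 14.4 CPM in vehicle (adjusted p = 0.000254 in that edgeR test with Benjamini-Hochberg adjustment). At 24 h 37 members were called (26.4% of those tested): 24 falls higher and 9 lower (21.2% and 7.96% of the falls tested), and 3 of 27 rises higher and 1 lower, beside 6.01% and 6.39%. The 14 hepatocyte-rich falls tested gave 7 of the calls higher and 3 of those lower, and outside the block 17 falls were called higher (17.2%) and 6 lower (6.06%). The largest increase was that of ENSRNOT00000003921, which was at 0 to 0.0996 CPM in the vehicle libraries and at 6.22, 6.39, 8.21, 6.38 and 5.72 CPM in the treated ones (adjusted p = 1.02e-06, edgeR quasi-likelihood test with Benjamini-Hochberg adjustment). This member of the hepatocyte-rich block averaged 28660 CPM in hepatocyte vehicle cultures at 9 h. From the same block, ENSRNOT00000004174, ENSRNOT00000022113 and ENSRNOT00000058422 also went from near 0 in vehicle to means of 0.959, 1.73 and 0.775 CPM. The origin of these reads was not tested. ENSRNOT00000023835, also of the block, had the largest decrease, from 4.42 to 5.76 CPM to 0.724 to 1.54 CPM (log2 fold change -2.09 ± 0.21, adjusted p = 2.23e-05 in the same edgeR test with Benjamini-Hochberg adjustment).

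**Figure D5:**
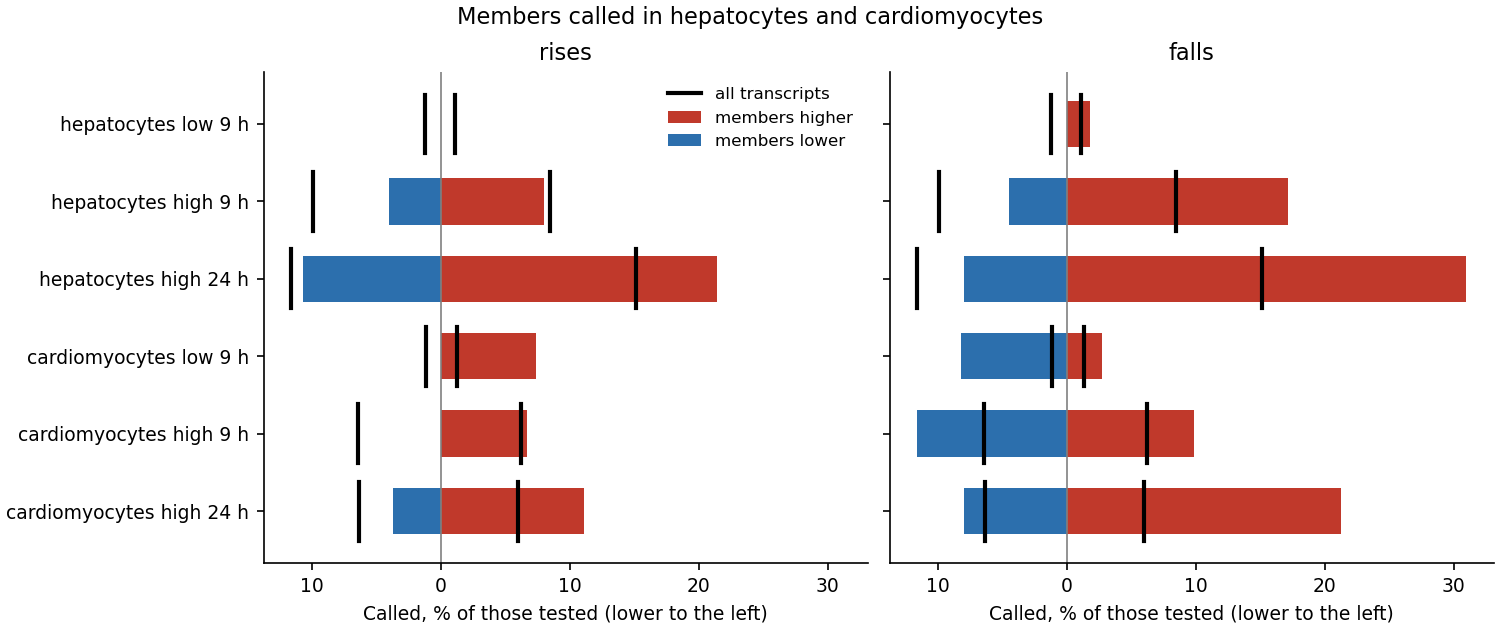
Share of the tested rises (left) and falls (right) that were called higher (red, to the right of 0) or lower (blue, to the left of 0) in each of the 6 comparisons outside renal cells, in percent. Black marks give the share of all transcripts tested that were called. Among the red bars of the falls, that of hepatocytes at the high dose at 24 h (30.97% beside 15.1%) would be 14.5% without the hepatocyte-rich block, that of hepatocytes at the high dose at 9 h (17.1% beside 8.48%) would be 23.5%, and that of cardiomyocytes at the high dose at 24 h (21.2% beside 6.01%) would be 17.2%.

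Among the members called in both directions, ENSRNOT00000023419 was higher in treated hepatocytes and lower in treated cardiomyocytes. It is named after its values were seen because it was called in 5 of the 6 comparisons. This fall had 6.2 to 7.44 CPM in renal vehicle cultures at 9 h, 2.08 to 3.01 CPM at the low dose and 2.05 to 2.71 CPM at the high dose. Its log2 fold change in hepatocytes was 0.60 ± 0.18 for the low dose and 1.13 ± 0.17 for the high dose at 9 h, and 2.46 ± 0.16 for the high dose at 24 h. In cardiomyocytes it was -0.85 ± 0.05 at 9 h and -0.93 ± 0.08 at 24 h at the high dose. The adjusted p ranged from 1.66e-07 to 0.0401 over these 5 comparisons (edgeR quasi-likelihood test with Benjamini-Hochberg adjustment), and the difference between the cell types was not tested.

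The median length was 2351 bases for the rises, 2869 bases for the other falls and 1901 bases for the hepatocyte-rich falls, beside 2239 bases over the 16163 transcripts of at least 1 CPM. Levels were lower for the rises and the other falls: the median vehicle level at 9 h was 0.711 TPM for the rises and 3.95 TPM for the other falls, beside 12.0 TPM. Estimated counts lay within 1e-06 of a whole number in all renal libraries for 59 of the 200 (29.5%), or 47 of 170 without the block, against 38.7% of the 16163. The other members had a fractional count in at least 1 library, as an estimate has when reads are divided among targets. ENSRNOT00000008608 and ENSRNOT00000077564 had the same value in every library and are counted as 2 members, though the reads cannot tell them apart.

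The edge of the list was not marked by a gap. The last members inside it were ENSRNOT00000008126 (L of 0.67) and ENSRNOT00000076485 (-0.67), and the first outside it ENSRNOT00000014798 (-0.67) and ENSRNOT00000050655 (0.67). At the bounds of 24 h, ENSRNOT00000080094 was just inside at the low dose with -0.29 and ENSRNOT00000011552 just outside with 0.30, and at the high dose ENSRNOT00000003791 (0.30) was just inside and ENSRNOT00000026495 (-0.30) just outside.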

How the data were processed

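RNA of 90 cultures was sequenced after poly-A selection. Per library, the authors deposited estimated counts, TPM, length and effective length of each target, from Kallisto (version 0.42.4 in the submitters' processing notes) and Rnor_6.0. The 25095 genomic intervals beside the transcripts were left out. The members and lists were chosen with earlier results of these data known. CPM came from unrounded estimated counts. Tests used edgeR 4.0.16 under R 4.3.3 on counts rounded to whole numbers, with filterByExpr, TMM, glmQLFit and glmQLFTest, 2 groups a fit, Benjamini-Hochberg over all transcripts tested. A call needed an adjusted p of 0.05 or less and a fold change of 0.41 or more in size as a natural logarithm. On simulated data for hepatocytes at the high dose at 9 h (16270 transcripts), 130 of 195 changed transcripts were recovered, 114 of 138 changed at least 2-fold, with 5 false calls. Named transcripts were the 6 largest rises and falls, the 2 of highest TPM in each direction, those at the edges, those with the largest L of either sign at the high dose, and, for each comparison outside renal cells, the largest increase and decrease among called members whose log2 CPM averaged 1 or more, with no overlap between groups. Planned gene and marker lists could not be matched. Alternatives were DESeq2 1.42.0, limma 3.58.1, upper-quartile scaling, other filters, other pseudocounts and bounds, TPM, medians and each library left out.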

Additional observations from a re-analysis of the deposited data

Results flagged for a closer look

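In 46 checks for 1 library far from the rest of its group, made over several measures in the renal groups (Dixon's criterion for 5 libraries), 6 found one, where chance gives about 2.3. The checks share libraries and are not independent. In the high-dose group of 9 h, MS-135 had the smallest median log2 ratio of the other falls to vehicle, -0.82, against -0.88 to -0.86 in the other 4, and MS-132 had the shortest fragments, 153.5 bases against 165.6 to 169.5. In the low-dose group of 24 h, MS-145, left out of the list, had a median of -0.56 for the other falls against -0.04 to 0.03 in the others, and -0.0054 for the hepatocyte-rich falls, where the others were at 0. ENSRNOT00000072868 stood at 28.5 CPM in MS-130 against 0.537 to 2.88 CPM in the other low-dose libraries of 9 h. ENSRNOT00000089935 stood at 0.412 CPM in MS-122 and near 0 in the other vehicle libraries of 9 h.

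In MS-145, which no comparison used, 3 of the largest rises were above every vehicle library of 24 h: ENSRNOT00000072868 at 75.5 CPM (highest vehicle library 22.7), ENSRNOT00000089935 at 28.4 CPM (16.0) and ENSRNOT00000080478 at 12.5 CPM (7.40).

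At 0.125 mM and 9 h, 4 of the largest falls had every treated renal library below vehicle and every treated hepatocyte library above vehicle. The hepatocyte means at the high dose were 35830 CPM for ENSRNOT00000003921 (vehicle 28660), 3547 for ENSRNOT00000004174 (3031), 2706 for ENSRNOT00000022113 (2323) and 3164 for ENSRNOT00000058422 (2530). Their log2 fold changes in hepatocytes were 0.31 to 0.41, too small to be called. ENSRNOT00000004780, also among the 6 largest falls, was lower in every treated hepatocyte library (2986 to 3279 CPM against 3648 to 4039). ENSRNOT00000010454 overlapped with vehicle there. The difference between the cell types was not tested, and all 6 belong to the hepatocyte-rich block.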

How the results depend on the processing

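Of the 200 members, 35.5% stayed with TPM in place of CPM, 34% with a pseudocount of 5 (the list then held 18 rises), 56% with the median over libraries and 58% with bounds of 0.2 at 24 h. With the pseudocount of 5 and with the bounds of 0.2, fewer than 200 transcripts met every bound, so these lists were shorter. Of the members, 68 met every bound with the pseudocount of 5. Leaving out each library in turn gave 45 to 59 rises, made 70.5% to 77.5% of the list falls, kept 81% to 95% of the members, and left 82% to 86% of the members with the larger change in vehicle. Members called (edgeR, adjusted p by Benjamini-Hochberg) changed as follows. In hepatocytes at the low dose at 9 h the count of 2 became 1 with DESeq2, limma or upper-quartile scaling, 0 without the filter, 33 without the fold-change threshold, and 0 to 3 with each library left out. In hepatocytes at the high dose it was 80 at 9 h without the fold-change threshold and 24 to 30 with each library left out, and at 24 h 20 with MS-183 kept, 29 without the hepatocyte-rich falls (an alternative added after the data were seen) and 49 to 59 with each library left out. For the low dose of the cardiomyocytes at 9 h it was 22 with DESeq2, 7 with limma, 23 without the fold-change threshold and 9 to 19 with each library left out. In cardiomyocytes at the high dose it was 65 at 9 h and 68 at 24 h without the fold-change threshold, and 22 to 32 and 33 to 41 with each library left out. For renal cells at the high dose at 9 h the share of tested members that were called was 73.0% to 76.4% with each library left out. The cause of these changes was not tested, apart from the threshold itself. The other values stayed within 1.5 times the main value under the alternatives run. No paired analysis was possible because the groups share no replicate numbers. Members near 1 CPM are limited by depth and by the division of reads among transcripts.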
